A study of Mus musculus with 16 samples.

Results

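The circadian clock genes described here are Arntl, Clock, Npas2, Per1, Per2, Per3, Cry1, Cry2, Dbp and Nr1d1. They were chosen by name as 10 of the 37583 genes listed, and all 10 were found. RNA was sequenced from the cortex and the cerebellum of 4 wild-type mice and 4 mice labelled as Slc39a8 A391T (A393T) mutants, all of strain C57BL/6J, as 16 libraries with 1 per mouse and region. The study's methods describe frontal cortex and cerebellum taken by blunt dissection from unperfused male mice aged 12 weeks, a description given for its wild-type mice and assumed here for the mutants. Slc39a8 encodes a metal ion transporter that carries manganese, and the labels do not state whether mutants were homozygous. The mice were housed in a 12-hour light and dark cycle, and the time of day at which tissue was collected is not given in the sources used here. Mice are numbered from 1 to 4 within each genotype, and a mouse has the same number in both regions.

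The molecular clock is a loop of transcription and repression that runs in nearly all cells of the body. BMAL1, the product of Arntl, pairs with CLOCK or with its paralog NPAS2 and activates genes that carry E-box motifs, among them the Per, Cry, Nr1d1 and Dbp genes. PER and CRY proteins return to the nucleus and repress their own activators. REV-ERBα, the product of Nr1d1, represses Arntl and Npas2 through ROR response elements, and DBP is an output factor that activates genes through D-box motifs. The loop in the suprachiasmatic nucleus is set by light, and the cortex and the cerebellum have clocks of their own that follow it. Levels of Per1, Per2, Dbp and Nr1d1 turn with the time of day in many tissues, whereas Clock changes little.

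The promoter windows of 3 members are shown because they hold the E-box or D-box letters through which the loop acts. RefSeq windows on GRCm38.p6, from 250 bases before the transcription start to 50 bases from it onward, were found for 9 of the 10 members. The motifs searched on both strands were the E-box CACGTG, the D-box TTATGNAA and the ROR half-site AGGTCA, and the matches, which do not overlap one another, stand in capitals. Per1 lies at chr11:69098699-69098998 on the plus strand, Cry1 at chr10:85185005-85185304 on the minus strand and Per3 at chr4:151044616-151044915 on the minus strand.
Per1: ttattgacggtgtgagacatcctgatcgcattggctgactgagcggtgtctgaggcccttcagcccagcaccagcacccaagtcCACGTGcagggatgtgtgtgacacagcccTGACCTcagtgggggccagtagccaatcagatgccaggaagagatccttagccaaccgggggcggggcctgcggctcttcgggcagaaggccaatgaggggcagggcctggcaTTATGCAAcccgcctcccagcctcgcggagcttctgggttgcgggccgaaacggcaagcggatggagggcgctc
Cry1: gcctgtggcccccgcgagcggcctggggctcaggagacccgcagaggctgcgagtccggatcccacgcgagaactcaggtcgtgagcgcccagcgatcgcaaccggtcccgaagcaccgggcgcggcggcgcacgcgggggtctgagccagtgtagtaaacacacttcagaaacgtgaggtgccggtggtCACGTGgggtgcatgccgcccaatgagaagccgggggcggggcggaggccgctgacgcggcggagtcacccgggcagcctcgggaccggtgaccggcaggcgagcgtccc
Per3: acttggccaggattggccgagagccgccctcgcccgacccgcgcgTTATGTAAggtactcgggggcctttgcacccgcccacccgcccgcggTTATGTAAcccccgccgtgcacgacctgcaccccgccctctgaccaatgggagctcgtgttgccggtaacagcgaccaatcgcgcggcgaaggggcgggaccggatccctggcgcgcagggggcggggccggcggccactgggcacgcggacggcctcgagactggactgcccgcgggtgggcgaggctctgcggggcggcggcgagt
Counted from the transcription start, the E-box began at position -166 in Per1 and at position -60 in Cry1. A D-box began at position -24 in Per1 and at positions -205 and -158 in Per3, and Per1 also had the ROR half-site letters at position -137. Of all 32851 windows, 7.15% held the E-box, 3.38% the D-box and 16.3% the half-site. The half-site was also found in 1 of the windows of Arntl and 1 of the windows of Clock, and no window of Npas2, Cry2, Dbp or Nr1d1 held any of the 3 motifs. Motif matches are letters in a window and not evidence of binding.

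Each library had between 20813432 and 30497206 counts on genes, with a median of 24488842. Each member had from 77 counts, for Npas2 in a cerebellum library, to 5865 counts, for Cry2 in a cortex library. Levels are given as TPM, a length-corrected share of all transcripts, computed from the counts and the gene length in the deposited table, so that levels of different genes can be set side by side. That length was 13508 bases for Clock and 11758 for Per3 against 8832 and 9608 exon bases in the NCBIM37 annotation, so the TPM of these genes depends on the gene model. Reads were counted without regard to strand, and exons of genes on the other strand cover 16.7% of the exon bases of Dbp (Sphk2), 8.4% of those of Nr1d1 (Thra) and 4.7% of those of Cry2 (D930015M05Rik), whose reads cannot be told apart there.

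The regions carried the markers of their labels. The 5 cortex markers summed to between 385 and 431 TPM in cortex and between 9.57 and 13.4 TPM in cerebellum, and the 5 cerebellum markers to between 2320 and 2590 TPM in cerebellum and between 11.7 and 26.8 TPM in cortex. Cortex libraries also held from 256 to 837 TPM of 5 striatal markers, and cerebellum libraries from 42.9 to 8080 TPM of 5 choroid plexus markers. The 5 genes listed for hypothalamus summed to between 115 and 182 TPM in cortex and between 36.0 and 54.7 TPM in cerebellum. Of these, Vip, which interneurons of the cortex also express, averaged 123 TPM in wild-type and 104 TPM in A391T cortex, and Rgs16 was between 15.7 and 22.7 TPM in cortex and between 35.8 and 48.0 TPM in cerebellum, whereas Avp, Hcrt and Prok2 were at or below 3.39 TPM in each library. The cerebellum library of A391T mouse 1 stood apart from the others of its group and region, with a root mean square log2 deviation from its group of 0.523 over genes against 0.23 to 0.387 in the other 15 libraries, and with the lowest share of reads on no gene, 10.21%. Slc39a8 itself ranged from 1.63 to 3.16 TPM and did not differ between genotypes in cortex (log2 fold change 0.17, SE 0.18, adjusted p = 1 in edgeR's quasi-likelihood test) or in cerebellum (log2 fold change -0.03, SE 0.13, adjusted p = 0.925), a check of the level that cannot show the base change. In the table of normalised values, 8 of the 16 libraries carry the name of a mouse of the other genotype, wild-type mice 1 and 2 being exchanged with A391T mice 3 and 4 in both regions. Groups here follow the count files, and statements on genotype are limited by this disagreement.

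The first comparison asks how clock gene expression differed between cerebellum and cortex. Npas2 was much lower in cerebellum and Cry1 was higher, in wild-type and in A391T mice alike, while their paralogs Clock and Cry2 differed by far less. These were the only 2 of the 10 members called in either genotype with both an adjusted p-value below 0.05 and a change of 2-fold or more. Of all genes tested, 24.7% were called in wild-type mice and 24.7% in A391T mice, so 2 of 10 is near the background. The median size of the log2 fold change was 0.25 for the members and 0.46 for all 16040 genes tested in wild-type mice.

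**Figure D1:**
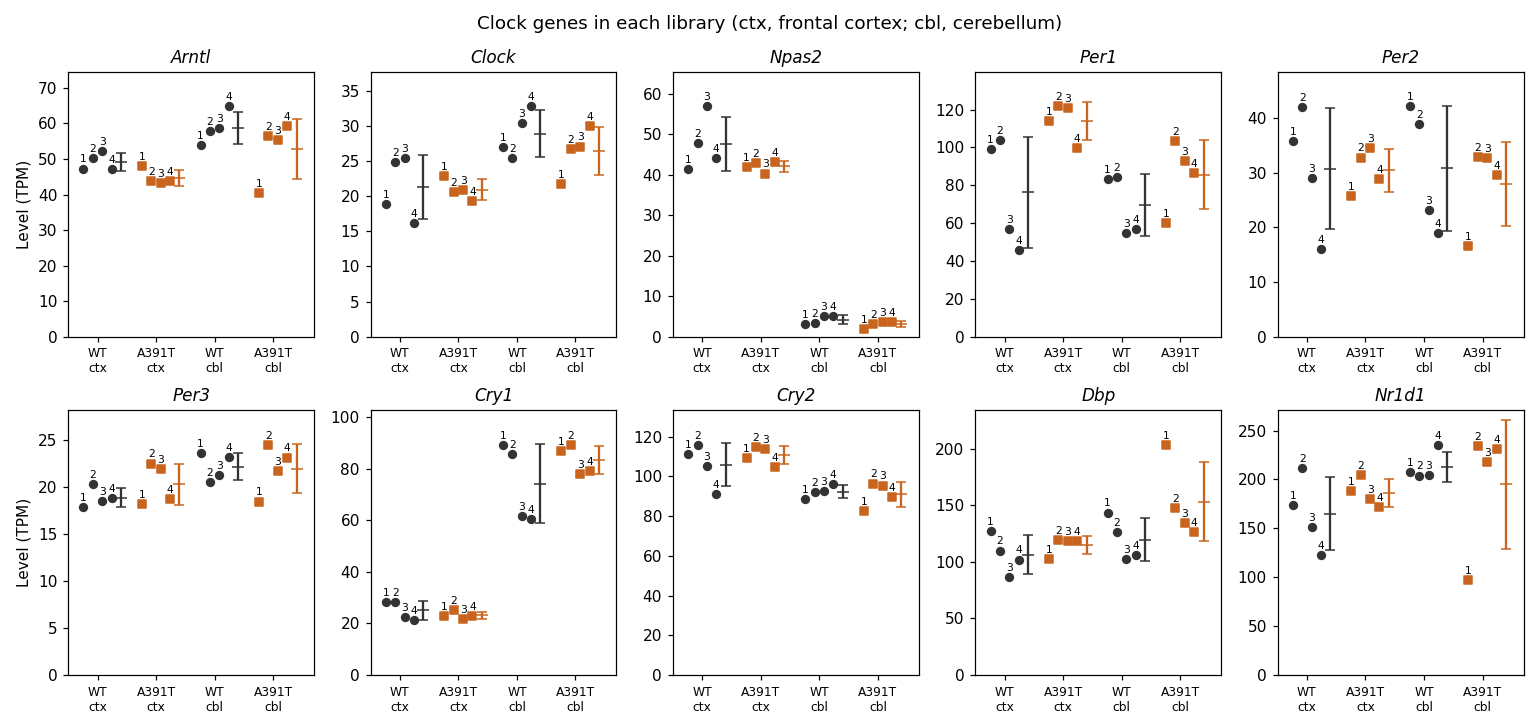
Level of each of the 10 clock genes in TPM (y axis) in each of the 16 libraries, in 4 groups (x axis: WT, wild-type; ctx, frontal cortex; cbl, cerebellum), with the number of the mouse above each point and the group mean and SD to its right (n = 4). Npas2 stands between 2.01 and 5.14 TPM in cerebellum and between 40.3 and 56.9 TPM in cortex, and Per1 of wild-type mice 3 and 4 lies below that of the other mice in cortex.

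Among the activators, Npas2 (ENSMUSG00000026077) lies on the plus strand of chromosome 1 of NCBIM37 from 39250576 to 39420079. In wild-type mice 1 to 4 it was at 41.5, 48.0, 56.9 and 44.3 TPM in cortex, and at 3.21, 3.45, 5.10 and 5.14 TPM in cerebellum. In A391T mice 1 to 4 it was at 42.0, 42.9, 40.3 and 43.2 TPM in cortex, and at 2.01, 3.20, 3.58 and 3.74 TPM in cerebellum. The cortex and cerebellum libraries did not overlap in either genotype. Npas2 was 12.5-fold lower in cerebellum in wild-type mice (log2 fold change -3.65, SE 0.15, adjusted p = 2.68e-09) and 14.6-fold lower in A391T mice (log2 fold change -3.87, SE 0.14, adjusted p = 9.27e-09). The ratio of the Npas2 to the Clock level within a library was 2.28 ± 0.34 (SD, n = 4) in wild-type cortex and 0.145 ± 0.022 in wild-type cerebellum. The size of this ratio depends on the gene length used for Clock.

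Clock (ENSMUSG00000029238; chromosome 5, minus strand, 76639992 to 76733817), the other partner of BMAL1, ranged from 16.1 to 25.4 TPM in wild-type cortex and from 25.4 to 32.8 TPM in wild-type cerebellum. Its log2 fold change was 0.29 (SE 0.13, adjusted p = 0.0702) in wild-type mice and 0.23 (SE 0.08, adjusted p = 0.0329) in A391T mice. The second value passed the adjusted p-value but not the 2-fold criterion, and the side of the threshold depended on the setting in both genotypes. In A391T mice it did not pass with the mouse as a block (adjusted p = 0.0901), with all 16 libraries in one model (0.0770) or with the names of the normalised table (log2 fold change 0.10, adjusted p = 0.311), and of the single libraries left out only those of mouse 1 left it past the threshold. In wild-type mice the adjusted p-value passed with the names of the normalised table (log2 fold change 0.41, adjusted p = 0.00728), with all 16 libraries (0.0370), with no filter on low counts (0.0432), and without the cortex library of mouse 2 or 3 (0.0345 and 0.0321) or the cerebellum library of mouse 2 (0.0473), and without the cortex library of mouse 4 the log2 fold change was 0.18 (0.142). Arntl (ENSMUSG00000055116; chromosome 7, plus strand, 120350979 to 120457636) was at 47.3, 50.3, 52.3 and 47.0 TPM in the cortex of wild-type mice 1 to 4 and at 53.9, 57.9, 58.6 and 64.8 TPM in their cerebellum. The wild-type groups did not overlap, yet the log2 fold change of 0.10 (SE 0.06, adjusted p = 0.170) was not past the threshold. It was 0.203 with the names of the normalised table (adjusted p = 0.0351) and 0.225 with library totals (adjusted p = 0.00833), both past the adjusted p-value. The TPM of a library are scaled to the same total and the tested counts by TMM factors, so the size of a gap can differ between these scales.

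Among the repressors, Cry1 (ENSMUSG00000020038) lies on the minus strand of chromosome 10 from 84594447 to 84647799. It was at 28.3, 28.2, 22.5 and 21.2 TPM in the cortex of wild-type mice 1 to 4, and at 89.1, 85.7, 61.5 and 60.4 TPM in their cerebellum. In A391T mice it was at 23.0, 25.1, 21.8 and 22.9 TPM in cortex, and at 86.8, 89.3, 77.9 and 79.2 TPM in cerebellum. Each cerebellum library exceeded each cortex library. Cry1 was 2.66-fold higher in cerebellum in wild-type mice (log2 fold change 1.41, SE 0.16, adjusted p = 1.17e-05) and 3.35-fold higher in A391T mice (log2 fold change 1.74, SE 0.09, adjusted p = 8e-08).

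Cry2 (ENSMUSG00000068742; chromosome 2, minus strand, 92243803 to 92274200) moved the other way and by less. It ranged from 91.1 to 116 TPM in wild-type cortex and from 88.6 to 96.2 TPM in wild-type cerebellum, which overlap. Its log2 fold change was -0.35 (SE 0.07, adjusted p = 0.00125) in wild-type mice and -0.39 (SE 0.06, adjusted p = 0.000155) in A391T mice, past the adjusted p-value but under 2-fold in both. With only the mice whose names match, the wild-type value was -0.22 and did not pass (adjusted p = 0.137). The Cry1 to Cry2 ratio within a library was therefore 0.236 ± 0.017 (SD, n = 4) in wild-type cortex and 0.807 ± 0.189 in wild-type cerebellum, and 0.210 ± 0.013 and 0.920 ± 0.100 in A391T mice.

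The Per genes showed smaller regional differences. Per1 (ENSMUSG00000020893; chromosome 11, plus strand, 68908719 to 68923462) was lower in the cerebellum of A391T mice, with a log2 fold change of -0.52 (SE 0.12, adjusted p = 0.00425), against -0.28 (SE 0.26, adjusted p = 0.359) in wild-type mice. The A391T value did not pass with all 16 libraries in one model (-0.51, adjusted p = 0.0575) or with only the mice whose names match (-0.60, adjusted p = 0.0794). Over all settings the wild-type value lay between -0.46 and -0.05. It was -0.46 without the cortex library of mouse 4 and -0.10 without that of mouse 2. Per2 (ENSMUSG00000055866; chromosome 1, minus strand, 93312561 to 93355907) had log2 fold changes of -0.14 (SE 0.30, adjusted p = 0.692) and -0.24 (SE 0.17, adjusted p = 0.252). Per3 (ENSMUSG00000028957; chromosome 4, minus strand, 150377761 to 150418774) differed by 0.08 (SE 0.07, adjusted p = 0.291) and 0.01 (SE 0.09, adjusted p = 0.960) on the log2 scale. The large standard errors of Per1 and Per2 in wild-type mice come with a wide spread between mice, described below for each animal.

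Of the genes driven by the loop, Nr1d1 (ENSMUSG00000020889; chromosome 11, minus strand, 98629246 to 98636647) and Dbp (ENSMUSG00000059824; chromosome 7, plus strand, 52960458 to 52965525) did not pass the test between regions with all libraries. Nr1d1 was at 174, 212, 151 and 123 TPM in the cortex of wild-type mice 1 to 4 and at 208, 204, 205 and 236 TPM in their cerebellum (log2 fold change 0.22, SE 0.13, adjusted p = 0.167). This value depended on the setting. It was 0.34 with library totals (adjusted p = 0.0232), 0.36 with the names of the normalised table (0.0103), 0.52 with matching names (0.0256) and 0.35 without the cortex library of wild-type mouse 2 (0.0153), each past the adjusted p-value, and 0.10 without that of mouse 4 (0.386). In A391T mice its log2 fold change was -0.05 (SE 0.21, adjusted p = 0.845) with all libraries and 0.16 (SE 0.06, adjusted p = 0.0270) without the cerebellum library of mouse 1, a change of direction. That library had 97.0 TPM of Nr1d1, against 218 to 234 TPM in the other 3. Dbp had log2 fold changes of 0.02 (SE 0.14, adjusted p = 0.929) in wild-type mice and 0.33 (SE 0.17, adjusted p = 0.110) in A391T mice, and 0.11 (SE 0.07, adjusted p = 0.143) in A391T mice without that library. Without the cerebellum library of A391T mouse 4 it was 0.43 and passed (adjusted p = 0.0462). Counting the adjusted p-value alone, 3 of the 10 members passed in wild-type mice, where 67.8% of all genes did, and 5 in A391T mice, where 62.8% did. Scaling by library totals, which moved the median log2 fold change of all genes up by 0.12 and 0.13, gave 7 in each genotype, where 69.8% and 66.7% of genes passed. Arntl, Clock, Per3 and Nr1d1 were then added in wild-type mice, and Arntl and Dbp in A391T mice. With the names of the normalised table the counts were 6 in wild-type and 4 in A391T mice, where 66.4% and 64.4% of genes passed. Without the cerebellum library of A391T mouse 1, Arntl also passed in A391T mice (log2 fold change 0.22, SE 0.05, adjusted p = 0.00316), and 7 of the 10 members did in all, where 72.7% of genes passed. With both libraries of A391T mouse 1 left out and the mouse as a block, a setting chosen after seeing the data, 8 passed, where 68.8% of genes did, Per2 among them (-0.15, adjusted p = 0.0340).

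**Figure D2:**
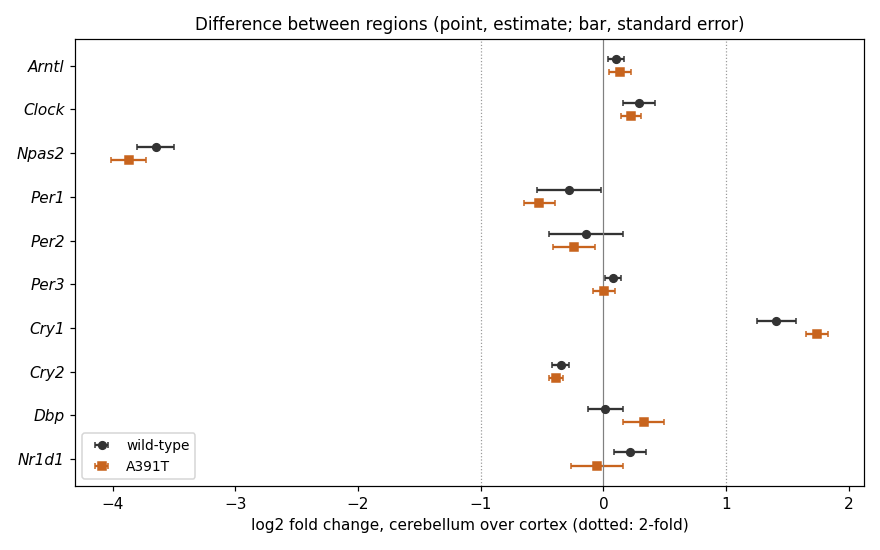
Log2 fold change of cerebellum over cortex (x axis) for each clock gene (y axis) in wild-type mice (circles) and A391T mice (squares), with the standard error as a bar and dotted lines at 2-fold. Npas2, at -3.65 and -3.87, and Cry1, at 1.41 and 1.74, lie outside the dotted lines, and the other 8 genes lie within them.

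Other genes of the clock pathway were counted from a list of 18. Of these, 4 were called between regions in wild-type mice, 1 higher and 3 lower in cerebellum, and 6 in A391T mice, 2 higher and 4 lower. Both counts are near the 24.7% of all genes called in either genotype. Rora and Rorb, whose products activate genes at the elements where REV-ERB factors repress, moved in opposite directions between regions. Rora averaged 18.5 ± 2.6 TPM (SD, n = 4) in wild-type cortex and 84.6 ± 3.6 TPM in wild-type cerebellum (log2 fold change 2.04, SE 0.08, adjusted p = 2.77e-09). Rorb ran the other way, from 11.5 ± 0.9 to 2.46 ± 0.16 TPM (log2 fold change -2.38, SE 0.09, adjusted p = 1.03e-09). Arntl2, a paralog of Arntl, and Hlf, a relative of Dbp, were also lower in cerebellum, with log2 fold changes of -1.18 (SE 0.13) and -1.04 (SE 0.08) and adjusted p-values of 7.63e-06 and 3.12e-07. In A391T mice the same 4 were called, and Bhlhe40, a repressor at E-boxes (log2 fold change -1.01, SE 0.09, adjusted p = 3.65e-06), and Nfil3, a repressor at D-boxes (1.02, SE 0.09, adjusted p = 4.40e-06), were called as well, at -0.66 (SE 0.17) and 0.87 (SE 0.09) in wild-type mice.

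Nr1d1 had the highest mean level of the members in each of the 4 groups. In wild-type cortex the means ± SD (n = 4) were 165 ± 37.4 TPM for Nr1d1, 106.5 ± 17.0 for Dbp, 105.9 ± 10.8 for Cry2, 76.4 ± 29.3 for Per1, 49.2 ± 2.5 for Arntl, 47.7 ± 6.7 for Npas2, 30.7 ± 11.1 for Per2, 25.0 ± 3.7 for Cry1, 21.3 ± 4.6 for Clock and 18.9 ± 1.0 for Per3. Neighbours in this order lay within their spread except for Nr1d1 against Dbp, Cry2 against Per1 and Npas2 against Per2, whose means differed by more than the SD of either gene. The places of Clock and Per3 in this order depend on the gene length used. In wild-type cerebellum Npas2 came last, at 4.23 ± 1.04 TPM, and Cry1, at 74.1 ± 15.4 TPM, stood beside Per1, at 69.9 ± 16.4 TPM.

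The next comparison is between mice, since each animal gave both regions. Spread between mice of a group differed among the members. The biological coefficient of variation, edgeR's estimate of the spread beyond counting error, was 26.9% for Per2, 22.3% for Per1, 18.7% for Nr1d1 and 16.7% for Dbp, against a median of 10.8% over 16589 genes. It was 13.7% for Cry1, 12.9% for Npas2, 11.8% for Clock, 8.25% for Per3, 8.10% for Arntl and 7.17% for Cry2. Per2 and Per1 therefore stood at the 95.8th and 91.8th percentile of genes, and Cry2 at the 10.6th.

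Per2 in cortex was at 35.8, 42.0, 29.0 and 16.1 TPM in wild-type mice 1 to 4 and at 25.8, 32.8, 34.5 and 28.9 TPM in A391T mice 1 to 4. In cerebellum it was at 42.1, 38.9, 23.2 and 19.0 TPM in the same wild-type mice and at 16.7, 32.9, 32.6 and 29.6 TPM in the same A391T mice. Mice with more Per2 in cortex had more in cerebellum. Over the 8 mice Pearson's r of the log2 levels was 0.860 (exact permutation p = 0.000422, two-sided, and 0.00422 adjusted over the 10 relations tested) and Spearman's rho was 0.929 (exact permutation p = 0.00223, 0.0223 adjusted). Without the 2 mice farthest from the median in cortex r was 0.954 (exact permutation p = 0.00556, 0.0556 adjusted, n = 6), which no longer passed after adjustment. Of all genes, 0.821% had an r between regions of at least this size in either direction, and the median r over genes was -0.01. Within genotypes, on deviations from the genotype mean, r was 0.869. Leaving out each mouse in turn gave r between 0.828 and 0.907, and without wild-type mouse 2 the adjusted p-value no longer passed.

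Per1 in cortex was at 99.1, 104, 57.0 and 45.8 TPM in wild-type mice 1 to 4 and at 114, 122, 121 and 99.7 TPM in A391T mice 1 to 4. In cerebellum it was at 83.5, 84.5, 54.6 and 56.8 TPM in the wild-type mice and at 60.3, 103, 92.7 and 86.7 TPM in the A391T mice. Wild-type mice 3 and 4 were the lowest of the 8 in both regions and stood apart from the others in cortex. Over all 8 mice r between regions was 0.864 (exact permutation p = 0.0123, 0.0613 adjusted, rho 0.762), which 0.730% of genes reached in size. On deviations from the genotype mean r was 0.808 (0.0520 adjusted, approximate because the permutations also exchanged mice across genotypes). Over the 6 mice other than these 2 it was 0.298 (exact permutation p = 0.601), so the relation rests on them. A391T mouse 1 was low in cerebellum alone, and without it r was 0.973 (exact permutation p = 0.00317, 0.0159 adjusted, n = 7). These 2 wild-type mice were also the lowest 2 of the 8 for Dbp and for Cry1 in cerebellum. In cortex wild-type mouse 3 had the lowest Dbp, and the place of wild-type mouse 4 depended on the scale. By TPM, wild-type mouse 4 lay just below A391T mouse 1, at 102.1 against 102.9 TPM. By CPM, counts scaled to library totals, it was at 90.7, above A391T mouse 1 at 85.1 and wild-type mouse 2 at 89.1.

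Dbp in cortex was at 127, 110, 86.6 and 102 TPM in wild-type mice 1 to 4 and at 103, 119, 118 and 118 TPM in A391T mice 1 to 4. In cerebellum it was at 144, 127, 102 and 106 TPM in the wild-type mice and at 204, 148, 134 and 126 TPM in the A391T mice. A391T mouse 1 was low in cortex and highest in cerebellum. The correlation between regions was r = 0.286 with all 8 mice (exact permutation p = 0.468, rho 0.310), and 0.871 without that mouse (exact permutation p = 0.00496, 0.0165 adjusted, n = 7), so the relation depends on whether this animal is included. For Nr1d1 r was -0.201 (exact permutation p = 0.566), for Cry1 0.577 (p = 0.112, exact permutation), and for Npas2 0.607 (p = 0.123, exact permutation). The remaining 4 members, Arntl, Clock, Per3 and Cry2, had r between -0.556 and 0.327, and none of these 7 passed the threshold after adjustment. On deviations from the genotype mean Cry1 had r = 0.917 (permutation p = 0.00313, 0.0156 adjusted), so its r depends on whether genotype is removed. These permutations also exchanged mice across genotypes, so the p-value is approximate and no call is drawn from it.

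Marker lists moved with some of these values. The summed level of 6 genes induced by glucocorticoids, hormones that follow the time of day and stress, was 160 and 151 TPM in the cerebellum of wild-type mice 3 and 4 against 195 to 238 TPM in the other 6 cerebellum libraries. In cortex it was 181 and 185 TPM in these mice against 172 to 245 TPM. The share of reads on no gene was 12.78% and 13.17% in these 2 cerebellum libraries and between 10.21% and 12.09% in the other cerebellum libraries. The cortex library of wild-type mouse 4 had the highest such share in cortex, 12.75%, the highest share of reads not uniquely aligned, 12.09% against 9.90% to 10.6% in the other cortex libraries, and the fewest counts of all 16. It was also the lowest cortex library by TPM for Per1, Per2, Nr1d1, Clock, Cry1 and Cry2. Without this mouse the r of Per2 between regions was 0.907 (0.0456 adjusted, exact permutation) and that of Per1 0.827 (0.210 adjusted, exact permutation). The part of these measures in the result was not tested, and the time of collection of each animal cannot be told apart from other differences between mice.

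**Figure D3:**
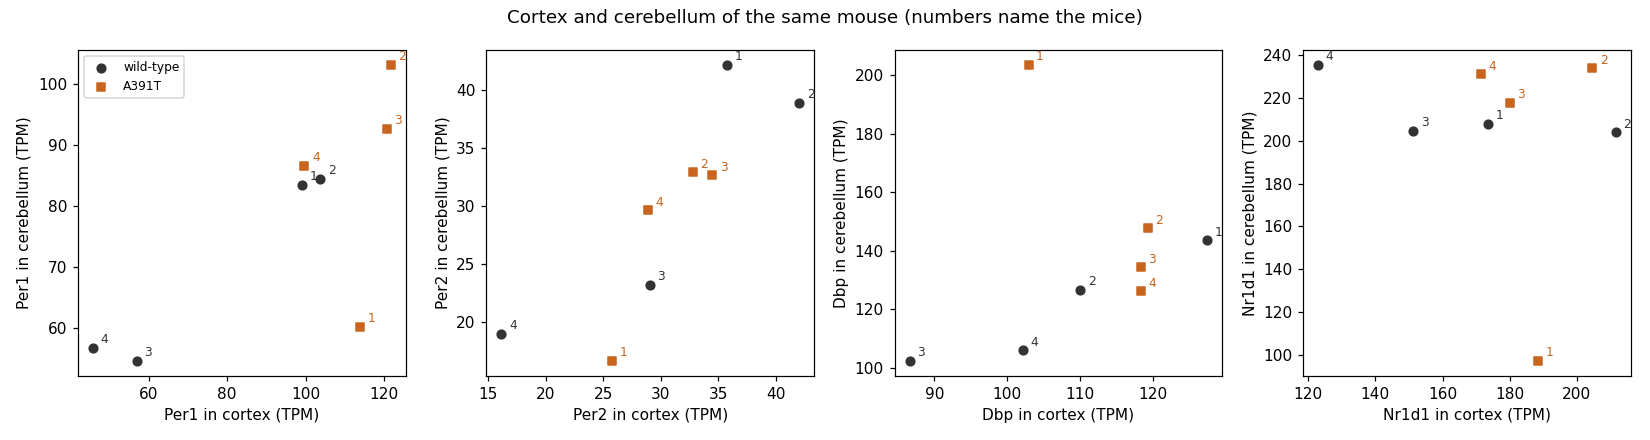
Level in cerebellum (y axis, TPM) against level in cortex (x axis, TPM) of the same mouse for Per1, Per2, Dbp and Nr1d1, with wild-type mice as circles, A391T mice as squares and the number of the mouse beside each point. Per2 runs upward over the 8 mice (r = 0.860), and A391T mouse 1 lies away from the others for Dbp, at 204 TPM in cerebellum, and for Nr1d1, at 97.0 TPM.

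How the other members ran with Dbp, the output of the loop, was examined across the 8 mice within each region, 18 relations in all. In cortex none passed after adjustment, and the strongest was Npas2 with r = -0.771 (exact permutation p = 0.0359, 0.129 adjusted, rho -0.333). In cerebellum, 4 members passed. Npas2 had r = -0.980 (exact permutation p = 0.000273, 0.00491 adjusted, rho -0.952), and r was -0.973 without the 2 mice farthest from the median of Dbp. Cry1 had r = 0.849 (exact permutation p = 0.00122, 0.0109 adjusted, rho 0.905). Arntl had r = -0.898 (exact permutation p = 0.0100, 0.0477 adjusted, rho -0.786) and Clock r = -0.834 (exact permutation p = 0.0106, 0.0477 adjusted, rho -0.762). The other members did not pass. Nr1d1, a target of the activators like Dbp, had r = -0.776 (exact permutation p = 0.0916, 0.257 adjusted, rho -0.0714), and 0.247 without A391T mouse 1. Per3 had r = -0.10 and Cry2 0.03. The calls depended on the setting. On deviations from the genotype mean only Npas2 passed (r = -0.970, 0.00670 adjusted by permutation). Cry1 (r = 0.800), Arntl (-0.878) and Clock (-0.825) had adjusted permutation p-values of 0.0729, 0.0554 and 0.0726. These p-values are approximate, because the permutations also exchanged mice across genotypes. Arntl and Clock also missed the threshold with library totals (0.0660 and 0.0515 adjusted) and with Spearman's rho (0.165 adjusted for both). Of the 4, only Npas2 passed with each mouse left out in turn, and without the 2 mice farthest from the median of Dbp none of them passed (adjusted p = 0.119 for Npas2, exact permutation, n = 6).

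A correlation of this size was common among all genes in cerebellum. Of 16567 genes, 13.4% were related to Dbp at least as strongly as Arntl, 24.9% as strongly as Clock and 22.5% as strongly as Cry1, in either direction, whereas 0.483% reached the size seen for Npas2. The cerebellum library of A391T mouse 1 bears on these values. Without that mouse, r was -0.982 for Npas2, 0.953 for Cry1, -0.635 for Arntl and -0.763 for Clock, and the shares of genes at least as strongly related were 0.121%, 1.17%, 34.6% and 20.1%. Per1 and Per2 went from r = 0.334 and r = -0.04 with all 8 mice to 0.946 and 0.855 without it, values that 1.58% and 10.1% of genes reached in size. In 7 mice, Npas2, Cry1 and Per1 passed after adjustment (0.0393, 0.0417 and 0.0417, exact permutation tests). Wild-type mice 3 and 4 had the lowest Dbp and the highest Npas2 in cerebellum.

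**Figure D4:**
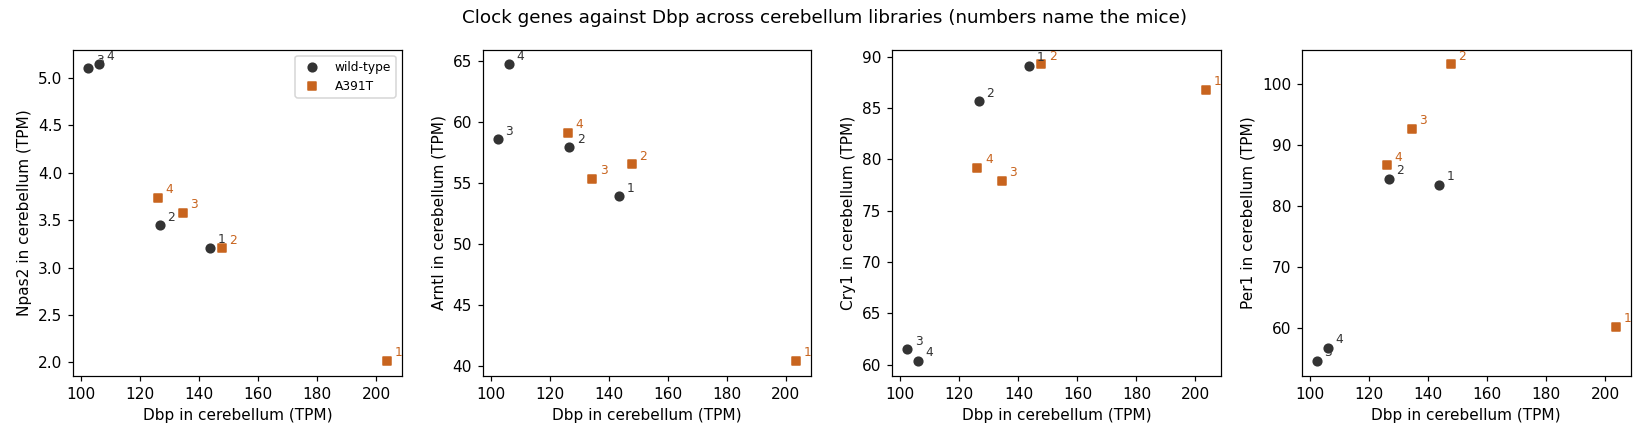
Level of Npas2, Arntl, Cry1 and Per1 (y axes, TPM) against that of Dbp (x axes, TPM) over the 8 cerebellum libraries, with wild-type mice as circles, A391T mice as squares and the number of the mouse beside each point. Npas2 falls as Dbp rises (r = -0.980) and Cry1 rises with it (r = 0.849), and A391T mouse 1 lies at the far right, with 204 TPM of Dbp and 60.3 TPM of Per1.

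The genes most like Dbp across the 16 libraries, by Pearson's r of log2 levels centred within each of the 4 groups, were Ctsf (r = 0.964), Coro1a (0.957), Ifrd2 (0.945), Kcp (0.944) and Rnf41 (0.942) of 14411 genes compared. For Arntl they were Gm14420 (0.933), Smc5 (0.924), Casc4 (0.918), Golph3l (0.917) and Tfdp2 (0.917). No member was among these 10. Without the cerebellum library of A391T mouse 1, the 5 most like Dbp were Kcp (0.981), Slc35d1 (0.952), Flot1 (0.951), Apbb3 (0.949) and Papss1 (0.949), so that 1 of the first 5 remained. With all 16 libraries Cry1 ranked 784th for likeness to Dbp (r = 0.768), Per1 5305th (0.271), Cry2 6232nd (0.148), Per2 6325th (0.136), Per3 7609th (-0.04) and Nr1d1 11445th (-0.490). Without that library Cry1 ranked 84th (0.834), Per1 340th (0.726), Per2 734th (0.642), Per3 3569th (0.338), Cry2 4112th (0.290) and Nr1d1 4834th (0.228). Npas2 stood near the opposite end in both, at -0.925 and -0.875.

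The last comparison asks whether clock genes differed between A391T and wild-type mice. None of the 10 members was called in cortex or in cerebellum, where 0.00632% and 0% of all genes tested were called. In cortex 3 members had an unadjusted p-value under 0.05, and in cerebellum none had, as against 748 of 15815 and 1340 of 15668 genes. DESeq2 called 2 and 9 genes in these regions, none of them a member. The groups overlapped for each member in each region, by TPM, and the share of all genes with such an overlap was not computed.

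In cortex Per1 had the largest difference, with a mean of 114 ± 10.2 TPM (SD, n = 4) in A391T mice and 76.4 ± 29.3 TPM in wild-type mice (log2 fold change 0.56, SE 0.21, adjusted p = 1 by edgeR). The wild-type mean holds the 2 low mice described above, and without wild-type mouse 4 the log2 fold change was 0.38. Using only the mice whose names agree between count files and the table of normalised values, which keeps these 2 mice as the wild-type group, it was 1.17 (adjusted p = 0.233). Per1 is also an immediate early gene of neurons. The summed level of 6 other immediate early genes in cortex was between 1050 and 1530 TPM in A391T mice and between 700 and 986 TPM in wild-type mice, and the part of this in the result was not tested. Arntl and Npas2 had log2 fold changes of -0.16 (SE 0.06) and -0.20 (SE 0.08) in cortex, each with an adjusted p of 1. The other 7 members had log2 fold changes in cortex between -0.13 and 0.16.

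In cerebellum the largest differences were those of Dbp (log2 fold change 0.42, SE 0.19, adjusted p = 0.532), Npas2 (-0.39, SE 0.21, adjusted p = 0.532) and Per1 (0.33, SE 0.19, adjusted p = 0.532). Mean levels of Dbp were 153 ± 34.9 TPM (SD, n = 4) in A391T mice and 120 ± 19.3 TPM in wild-type mice, and the A391T mean holds the library of mouse 1, at 204 TPM. Without that library the log2 fold change was 0.20 for Dbp and -0.25 for Npas2, and without wild-type mouse 3 it was 0.22 for Per1. With only the mice whose names agree it was 0.89 for Dbp, -0.87 for Npas2, 0.65 for Per1 and 0.65 for Cry1 (adjusted p = 0.473 for each), against 0.22 for Cry1 with all mice. The order of these differences therefore depends on which mice are included. Nr1d1 was at 195 ± 65.7 TPM in A391T and 213 ± 15.1 TPM in wild-type cerebellum (log2 fold change -0.09, SE 0.21), and at 0.11 on the log2 scale without that library. The median log2 fold change of the members was -0.02 in cerebellum and 0.01 in cortex. None of the 18 pathway genes was called in either region. The largest of their differences in cortex were those of Gm129, a repressor at E-boxes also called Ciart (0.40, SE 0.18), Bhlhe40 (0.28) and Arntl2 (-0.18), and in cerebellum those of Nfil3 (0.29, SE 0.09), Bhlhe41 (0.24) and Rorb (0.22), each with an adjusted p-value of 1 in cortex and 0.532 in cerebellum.

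**Figure D5:**
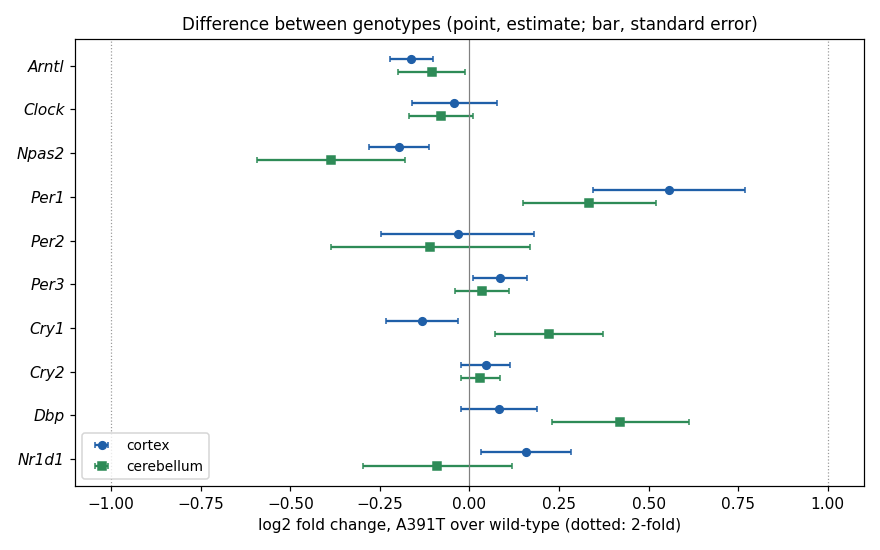
Log2 fold change of A391T over wild-type mice (x axis) for each clock gene (y axis) in cortex (circles) and cerebellum (squares), with the standard error as a bar and dotted lines at 2-fold. All 20 values lie inside the dotted lines, with Per1 in cortex the highest at 0.56 and Npas2 in cerebellum the lowest at -0.39.

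Whether the regional difference depended on genotype was tested as an interaction over all 16 libraries. None of the members was called, nor was any of the 16589 genes tested (0%), with 805 genes at an unadjusted p-value under 0.05 and none of them a member. DESeq2 called no gene either. Cry1 came nearest, its cerebellar excess being larger in A391T mice by 0.34 on the log2 scale (SE 0.20, adjusted p = 0.769). For Npas2 the interaction was -0.21 (SE 0.21, adjusted p = 0.804), and adjusted p-values of the members lay between 0.769 and 0.959.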

How the data were processed

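RNA of cortex and cerebellum of 4 wild-type and 4 A391T mice was measured as 16 polyA-selected directional libraries. According to the methods and the processing notes, the authors aligned reads to mm9 with STAR, and HTSeq gave the number per Ensembl gene. Counts were deposited as whole numbers, not normalized and not split by strand. The authors also deposited RPKM values with gene lengths in 1 table. It served for gene names and lengths and for checking library names, and each of its columns was proportional to the counts of 1 library after division by length. Entries on no gene, ambiguous or not uniquely aligned stayed out of totals and tests, at 10.21% to 13.17%, 2.20% to 2.75% and 8.41% to 12.09%.

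Counts were tested in R 4.3.3 with edgeR 4.0.16 (limma 3.58.1), using filterByExpr, TMM scaling and the quasi-likelihood test, adjusting p-values over all tested genes by Benjamini-Hochberg, and checked on simulated data. Calls needed an adjusted p-value below 0.05 and a change of 2-fold or more (log2 size 1). Relations across mice used log2 CPM (prior count 2) with two-sided exact permutation tests over the 40320 pairings, in Python 3.11.15 with pandas 2.3.3 and numpy 2.4.6. They were adjusted over 10 relations between regions and 18 to Dbp. On deviations from the genotype mean the pairings also exchanged mice across genotypes, so those p-values are approximate. Alternatives were DESeq2 1.42.0, RLE factors, library totals, other filters, no fold criterion, the library names of the RPKM table, only mice whose names match, all libraries in one model, mouse as a block and each library left out.

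Members, gene lists and tests were chosen with earlier results of these data known. Named genes are the members, pathway genes that were called or among the 3 largest changes of a comparison, the 5 genes most like Dbp and most like Arntl, and Slc39a8. One item of the pathway list is not reported here and is left out of its counts. The labels give both regions of a mouse the same number, so the numbers pair libraries. Across genes, deviations from the group means of the 2 regions of a mouse correlated between -0.0994 and 0.119. Between different mice of the same genotype they correlated between -0.167 and 0.152. These values do not tell pairs of the same mouse from other pairs, so the pairing rests on the labels. The labels give no more on litter, batch or collection. P-values of the region, genotype and interaction tests measure the spread between libraries of a group, with no term for the mouse in the main fits. Those of the relations come from pairing the mice anew. The precision of counts was limited by the 77 to 161 counts of Npas2 per cerebellum library.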

Additional observations from a re-analysis of the deposited data

Results flagged for a closer look

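In 4 of the 40 groups of 4 libraries tested, 10 genes in 4 groups, 1 library lay far from the other 3, by Dixon's test at the 95% level. Chance flags about 1 in 20 such groups. Nr1d1 in the cerebellum of A391T mouse 1 was at 97.0 TPM, against 218 to 234 TPM in the other A391T mice (gap to range 0.882). Nr1d1 in the cerebellum of wild-type mouse 4 was at 236 TPM against 204 to 208 TPM (0.875). Dbp in the cortex of A391T mouse 1 was at 103 TPM against 118 to 119 TPM (0.948), and Arntl in the same library was at 47.9 TPM against 43.1 to 43.8 TPM (0.866). Of the 4 values, 3 belong to A391T mouse 1.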

How the results depend on the processing

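The 2 members called between regions, Npas2 and Cry1, were called in both genotypes under each alternative run, with Npas2 between -3.76 and -3.47 and Cry1 between 1.31 and 1.54 on the log2 scale in wild-type mice. No alternative called a member between genotypes or for the interaction, and the replicate block for mouse left the counts of called members at 2 and 0. With the adjusted p-value alone, 5 members passed between regions in A391T mice, where 62.8% of all genes did. Relations between regions passed for 2 members on deviations from the genotype mean, where p-values are approximate. They passed for 0 without the 2 mice farthest on the x axis (n = 6), and for 0 to 3 when each mouse was left out. Relations to Dbp in cerebellum passed for 2 members with library totals or Spearman's rho, and for 1 on deviations from the genotype mean (approximate p-values). They passed for 0 without the 2 farthest mice, and for 1 to 3 with each mouse left out. In cortex they passed for 0 to 1 with each mouse left out.

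Among members past no threshold with all libraries and the settings used for calls, these log2 fold changes turned sign. Nr1d1 between regions in A391T mice was 0.0851 with library totals, -0.14 to 0.158 with each library left out, and 0.165 with the replicate block and mouse 1 left out (adjusted p = 0.0336, an alternative chosen after seeing the data). Dbp between regions in wild-type mice was -0.00564 with RLE factors, -0.00533 with DESeq2, -0.0104 with the RPKM table's names, -0.0277 with matching names, -0.00864 with the table's names and the replicate block, and -0.0818 to 0.119 with each library left out. Per3 in A391T mice was -0.00382 with RLE factors and with DESeq2, -0.0051 with at least 1 CPM in 4 libraries, and -0.0483 to 0.0531 with each left out, and Per2 in wild-type mice -0.354 to 0.0465.

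Between genotypes in cortex, the RPKM table's names gave 0.0157 for Arntl, 0.0889 for Clock, 0.326 for Per2 and 0.235 for Cry1, and matching names 0.0475, 0.354 and 0.112 for the last 3. With each library left out, Clock was -0.144 to 0.0376, Per2 -0.236 to 0.146, Cry2 -0.00949 to 0.0815 and Dbp -0.0147 to 0.188, and in cerebellum Per2 -0.287 to 0.084, Per3 -0.00994 to 0.0736 and Nr1d1 -0.182 to 0.11. Per2 in cerebellum was 0.363 under the table's names and 0.325 with matching names. The cause was not tested. The precision of Npas2 in cerebellum is limited by its low counts.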
